A study of Mus musculus with 9 samples.

Results

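L1Md_T is a family of evolutionarily young LINE-1 elements of the mouse. The 1477 copies described here are the entries named L1Md_T in the deposited table of repeat expression, out of 38385 listed copies from 1042 repeat families, and no expression value enters the rule that chose them. Each entry carries a copy number, which is used below as a name. Positions of the copies in the genome were not used here, and 2 entries share 1 copy number. All listed copies, L1Md_T included, have a value above 0 in each of the 9 libraries. Copies at 0 in any library are thus not among those listed, even if another line had reads. The listing itself therefore depends on expression, though the choice by name does not. The family below means the 1477 listed copies.

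The libraries are oligo(dT)-selected RNA-seq of 3 lines of J1 mouse embryonic stem cells (ESCs) at days 0, 2 and 4 of differentiation, with 1 library per line and day. WT is the parental J1 line, 1KO is Dnmt1-/-, and 1KO+1CI is 1KO carrying a transgene for catalytically inactive DNMT1 driven by the CAG promoter, with zeocin selection of colonies. Independent transgenic clones were studied side by side, and the 1KO+1CI columns carry a single label, CI6, which may name 1 of them. At day 0 each line grew in serum and LIF on mitomycin C-treated embryonic fibroblasts, and for differentiation these feeders were depleted and the cells were cultured as embryoid bodies and then as adherent cells, without LIF. With a single library per condition there is no replicate error. The differences given here compare single libraries, intervals cover counting error only, and no test was run on single copies or genes. The intervals take reads as independent, and reads counted at more than 1 copy would make them too narrow.

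LINE-1 elements are retrotransposons that copy themselves through an RNA intermediate. A full-length element has an internal promoter in its 5′ untranslated region and encodes an RNA-binding protein and a protein with endonuclease and reverse transcriptase activity. The mouse L1Md_T, L1Md_A and L1Md_Gf families include elements still capable of transposition, and DNA methylation of the promoter, H3K9 methylation and the HUSH complex are among the known means by which cells restrain them. Reads of young copies can map to several near-identical places, so a value of a single copy may include reads of its relatives.

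Dnmt1 itself was measured first. Its transcript had 74.0 FPKM (fragments per kilobase of sequence, scaled to the depth of the library) in WT at day 0, compared with 13.7 in 1KO and 315 in 1KO+1CI. In the same order it had 80.4, 17.4 and 129 FPKM at day 2, then 48.5, 12.3 and 158 at day 4. Each day the 1KO library was the lowest and the transgenic library the highest. Pou5f1, the pluripotency factor OCT4, was at 632 FPKM or above in all 9 libraries, as is usual of ESCs and early epiblast-like cells.

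L1Md_T RNA was low at day 0 in all 3 lines, was highest at day 2 and was mostly lower again at day 4. The mean over the 1477 copies was 0.460 FPKM in WT at day 0, 1.70 at day 2 and 0.635 at day 4. In 1KO the means were 0.340, 1.10 and 0.441 FPKM, and in 1KO+1CI they were 0.485, 1.27 and 0.524 FPKM. On each day 1KO had the lowest mean of the 3 lines. 1KO+1CI was nearest to WT at day 0 and lay between 1KO and WT at days 2 and 4. In bulk libraries, fewer expressing cells and less RNA per cell cannot be told apart.

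**Figure D1:**
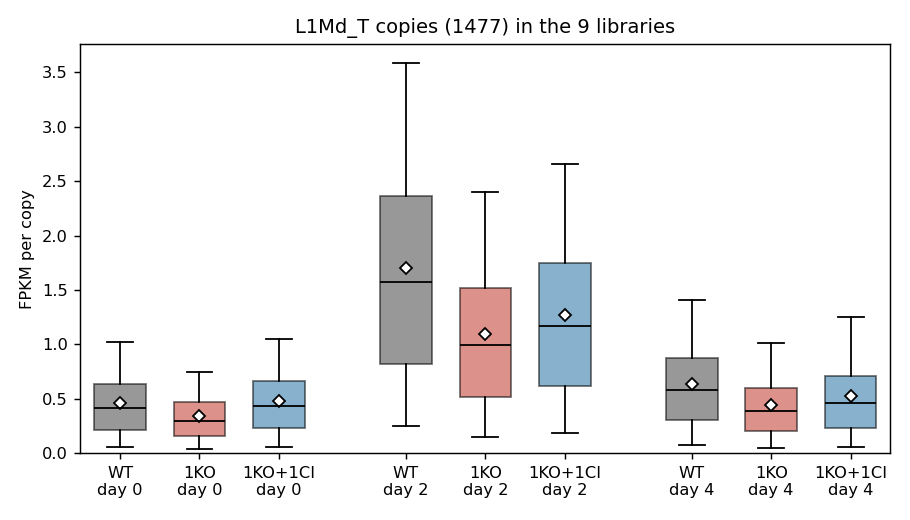
FPKM per copy (linear axis) of the 1477 L1Md_T copies in the 9 libraries, ordered by day and line. Boxes span the 25th to 75th percentile over copies with a line at the median, whiskers the 5th to 95th percentile, and diamonds mark the mean; spread is between copies, not replicates. The 3 day 2 boxes sit above those of days 0 and 4, and WT at day 2 is highest with a mean of 1.70 FPKM.

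The shift at day 2 involved the bulk of the copies. The median copy had 0.413, 1.57 and 0.580 FPKM in WT at days 0, 2 and 4. The median was 0.298, 0.997 and 0.391 FPKM in 1KO and 0.433, 1.17 and 0.460 FPKM in 1KO+1CI. Copies at 1 FPKM or above numbered 81, 17 and 96 at day 0 (WT, 1KO and 1KO+1CI, in that order), 1032, 736 and 858 at day 2, and 258, 81 and 155 at day 4.

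These values rest on few reads per copy and many per family. FPKM values of 1431 copies, 96.9% of the family, were whole multiples of a step shared by the libraries, which gave the number of reads behind each value. The median copy had between 18 and 26 reads in the day 0 and day 4 libraries and between 46 and 85 at day 2. Summed over copies with a step, there were 32252 reads in WT, against 32186 in 1KO and 39429 in 1KO+1CI at day 0. The sums were 141186, 78769 and 92143 reads at day 2, and 45112, 34202 and 36210 at day 4. Library depth was not measured but estimated from the FPKM steps, at between 20400000 and 28100000 reads. As a share of it, the copies with a step held from 0.115% in 1KO at day 0 to 0.578% in WT at day 2.

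The reads were spread widely. The 10 highest copies held between 2.64% and 3.68% of the family's summed FPKM, and the number of copies needed to reach 50% of it ranged from 367 to 404. Leaving out the 10 highest copies moved no family difference beyond its counting interval. The order of copies was alike from library to library, with Spearman correlations across copies between 0.75 and 0.91 over the 36 pairs of libraries. Copies are not independent replicates, and they share lengths and mapped reads.

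Day 2 was set against day 0 in each line to ask how the family level shifted early in the differentiation culture. The ratio of mean FPKM was 3.71 in WT, against 3.23 in 1KO and 2.61 in 1KO+1CI. On the scale log2(mean FPKM + 1), day 2 was higher by 0.89 in WT, against 0.65 in 1KO and 0.61 in 1KO+1CI. With a pseudocount of 0.1 in place of 1, which dampens low values less, the differences were 1.69, 1.45 and 1.22. This comparison of days was taken up after the levels had been seen.

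By copy, 1468 of 1477 had a higher value at day 2 than at day 0 in WT, against 57.3% of all listed copies, and 1455 did so in 1KO and 1455 in 1KO+1CI, against 62.6% and 60.2% of all copies. A difference of over 0.5 in log2(FPKM + 1) was reached upward by 1118 copies in WT, 75.7% of the family against 28.0% of all copies. In 1KO it was reached by 882 copies, 59.7% against 29.9%, and in 1KO+1CI by 837, 56.7% against 26.8%. Downward it was reached by 0, 1 and 0 copies in the same order of lines, against 17.0%, 13.3% and 16.0% of all copies. Day 2 was the highest of the 3 days in every line for 1351 copies, 91.5% of the family, compared with 17.4% of all listed copies.

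**Figure D2:**
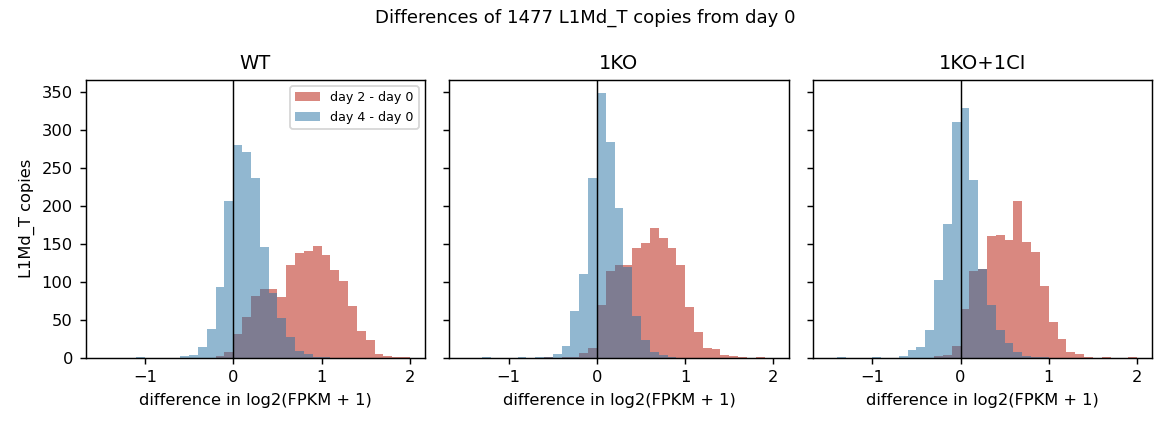
Number of L1Md_T copies (vertical axis) by difference in log2(FPKM + 1) from day 0 (horizontal axis, bins of 0.1), for WT, 1KO and 1KO+1CI; red is day 2 minus day 0 and blue is day 4 minus day 0. The day 2 differences lie almost wholly above 0, with medians of 0.83, 0.59 and 0.56, while the day 4 differences centre closer to 0, with medians of 0.13, 0.09 and 0.02.

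The whole repeat table was also shifted at day 2. Factors taken as the median ratio over all listed copies were 1.14 to 1.15 in the 3 day 2 libraries, 0.884 in 1KO at day 0 and between 0.902 and 0.990 in the 5 others, whereas factors from the gene table were all between 0.977 and 1.01. Relative to the repeats as a whole, the L1Md_T difference between day 2 and day 0 was 0.76 in WT, against 0.50 in 1KO and 0.49 in 1KO+1CI on the log2(mean FPKM + 1) scale. The direction was the same under either scaling.

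At day 4 the family lay between its day 0 and day 2 levels in each line. The ratio of day 4 to day 0 was 1.38 in WT, against 1.30 in 1KO and 1.08 in 1KO+1CI, which is 0.16, 0.11 and 0.04 on the log2(mean FPKM + 1) scale. Taking WT, 1KO and 1KO+1CI in turn, 1117, 1043 and 821 copies were above day 0 at day 4, or 75.6%, 70.6% and 55.6% of the family against 41.0%, 54.7% and 46.8% of all copies. Past 0.5 upward there were 96 copies in WT (6.50%, against 14.8% of all copies), 36 in 1KO (2.44%, against 22.7%) and 33 in 1KO+1CI (2.23%, against 19.0%). Downward there were 3, 4 and 15 copies, against 23.7%, 17.0% and 23.4% of all copies, and with factors from the repeats the split in 1KO+1CI was 49 upward and 12 downward. The upward shares were below those of all copies in each line, while the share that was higher at all was above them.

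The loss of DNMT1, the enzyme that maintains DNA methylation through replication, was addressed by setting 1KO against WT. L1Md_T RNA was lower in 1KO on every day. The ratio of 1KO to WT mean FPKM was 0.739, 0.644 and 0.695 at days 0, 2 and 4. The corresponding ratios of reads, scaled to depth, had 95% counting intervals of 0.722 to 0.745, 0.639 to 0.651 and 0.690 to 0.709. In log2(mean FPKM + 1), 1KO was lower than WT by the differences -0.12, -0.37 and -0.18, and with a pseudocount of 0.1 these were -0.35, -0.59 and -0.44. With factors from the repeats, the difference at day 0 was -0.081. Taking the days as 3 pairs of libraries, the mean difference was -0.22 ± 0.13 (SD, n = 3), with 1KO lower in 3 of 3 pairs and p = 0.25 in an exact two-sided permutation test of signs, the smallest p that 3 pairs allow. The pairs are different days and not replicates, and this test was added after the values had been seen.

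Among single copies, 1068 were lower in 1KO than in WT at day 0, 1344 at day 2 and 1156 at day 4, which is 72.3%, 91.0% and 78.3% of the family against 57.9%, 53.0% and 50.3% of all listed copies. With factors from the repeats, the day 0 shares were 65.5% of the family and 51.4% of all copies. Past 0.5 downward there were 48 copies at day 0, 3.25% of the family against 23.0% of all copies. At day 2 there were 362 copies, 24.5% against 19.7%, and at day 4 82 copies, 5.55% against 15.2%, or 124 copies with factors from the repeats. Upward, 1, 1 and 0 copies passed 0.5, against 15.2%, 17.8% and 20.6% of all copies. With a pseudocount of 0.1 and a threshold of 1, 157, 224 and 188 copies were lower at days 0, 2 and 4, or 10.6%, 15.2% and 12.7% against 19.1%, 13.9% and 12.2% of all copies, and 21, 5 and 7 were higher, against 11.4%, 13.9% and 17.2%. The share past 0.5 downward was below the background at days 0 and 4 and little above it at day 2, but level limits this share. In log2(FPKM + 1), the median L1Md_T copy was at 0.499 in WT at day 0, against 1.44 over all listed copies. A copy under 0.5 on that scale cannot fall by over 0.5, so the 2 shares are not like for like. The share that was lower at all was above the background on each day.

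**Figure D3:**
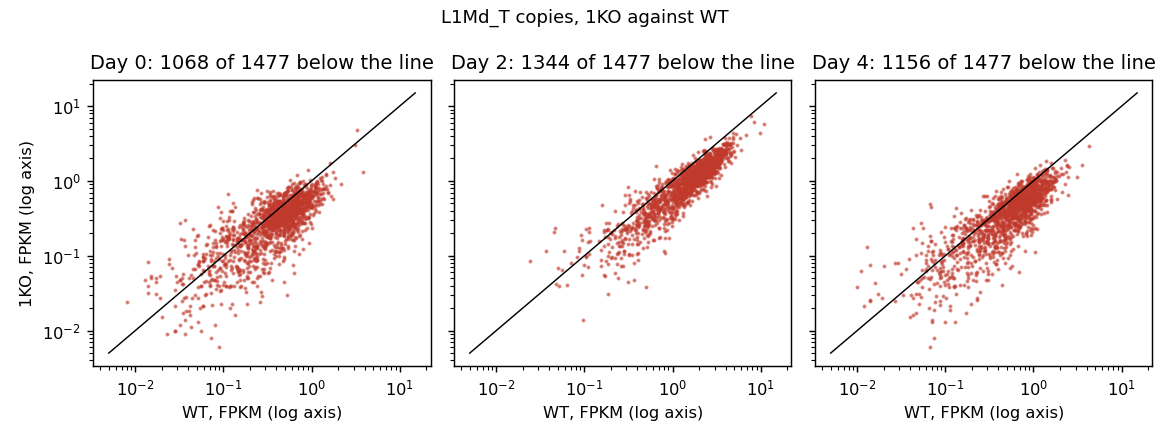
FPKM of each L1Md_T copy in 1KO (vertical, log axis) against WT (horizontal, log axis) at days 0, 2 and 4, with the line of equal values. At day 2, 1344 of the 1477 points lie below the line, and the cloud is displaced along its whole length.

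1KO was below WT on all 3 days for 788 copies, 53.4% of the family against 18.4% of all copies, and above WT on all 3 days for 25, or 1.69% against 12.4%. The copies' differences were only loosely alike between days. Between days, the Spearman correlation of the copies' 1KO minus WT differences in log2(FPKM + 1) was 0.20 for days 0 and 2, 0.13 for days 0 and 4 and 0.26 for days 2 and 4 (1477 copies, no library in common), and with a pseudocount of 0.1 it was 0.08, 0.03 and 0.12. The day 2 minus day 0 differences correlated at 0.69 between WT and 1KO, 0.67 between WT and 1KO+1CI and 0.63 between 1KO and 1KO+1CI, and at 0.26, 0.27 and 0.22 with the smaller pseudocount. These points share the copy, with its level and length, and the part of level in the correlations was not tested. Counting error lowers such correlations, since the median copy had 18 to 26 reads at days 0 and 4. Its part was not tested either.

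The relative difference was similar at low and high levels. When the copies were divided by mean FPKM over the 9 libraries into 4 groups of 369 or 370, the ratio of 1KO to WT at day 2 was 0.642 in the lowest group, 0.627 and 0.639 in the middle groups and 0.655 in the highest. At day 0 it ranged from 0.714 to 0.770, and at day 4 from 0.685 to 0.707. The ratio of day 2 to day 0 in WT was 3.39 in the lowest group and 3.73, 3.71 and 3.75 in the others. It ran from 2.84 to 3.33 in 1KO and from 2.52 to 2.64 in 1KO+1CI.

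Over 4 groups of copy length, as far as the size of 1 read's FPKM step gives it, the differences varied little. The few longest and shortest copies departed from this. The implied length had a median of 2242 bases and a range of 517 to 8114 bases. It orders the copies but may not be their annotated length. In 4 groups of nearly equal size by implied length, the 1KO minus WT difference at day 2 in log2(mean FPKM + 1) was -0.36, -0.36, -0.41 and -0.34 from the shortest to the longest, and the day 2 minus day 0 difference in WT was 0.86, 0.95, 0.95 and 0.82. The 39 copies over 5000 bases had means of 0.0894 FPKM in WT, against 0.0795 in 1KO and 0.102 in 1KO+1CI at day 0 and of 0.339, 0.231 and 0.295 at day 2. They were fewer and lower than the 1366 copies between 1000 and 5000 bases, whose day 2 means were 1.80, 1.16 and 1.34 FPKM, and they kept the same order of lines at day 2. In WT their day 2 minus day 0 difference in log2(mean FPKM + 1) was 0.30, against 0.91 for the 1366. With a pseudocount of 0.1 it was 1.21 against 1.69. At day 0, 51.3% of the 39 were lower in 1KO than in WT, against 73.4% of the 1366 and 57.9% of all listed copies. The 26 copies under 1000 bases had means of 0.235, 0.251 and 0.236 FPKM at day 0, where 1KO was not the lowest, and 0.924, 0.685 and 0.744 at day 2.

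Catalytically inactive DNMT1 was added back in 1KO+1CI to separate the presence of the protein from its activity. At day 0 the family was higher in 1KO+1CI than in 1KO, with a ratio of means of 1.43. The ratio was 1.15 at day 2 and 1.19 at day 4. The differences in log2(mean FPKM + 1) were 0.15, 0.11 and 0.08, and 0.41, 0.19 and 0.21 with a pseudocount of 0.1. Copies higher in 1KO+1CI than in 1KO numbered 1159, 1043 and 938 on the 3 days, against 57.8%, 48.2% and 50.4% of all copies. Past 0.5 upward there were 43 copies at day 0 (2.91%, against 19.2% of all copies), 40 at day 2 (2.71%, against 15.6%) and 25 at day 4 (1.69%, against 14.8%). Downward there were 2, 6 and 6, against 13.6%, 15.3% and 16.9% of all copies. With a pseudocount of 0.1 and a threshold of 1, 154, 44 and 83 copies were higher, against 16.0%, 11.0% and 10.9% of all copies, and 14, 9 and 31 were lower, against 9.96%, 10.4% and 13.7%.

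Against WT, 1KO+1CI stood at a ratio of 1.05 at day 0, 0.743 at day 2 and 0.826 at day 4. Copies lower in 1KO+1CI than in WT numbered 645 at day 0, 1215 at day 2 and 990 at day 4, against 50.7%, 52.3% and 46.2% of all copies. With a pseudocount of 0.1 and a threshold of 1, 42, 70 and 112 copies were lower, against 14.7%, 13.6% and 13.5% of all copies, and 70, 4 and 20 were higher, against 14.3%, 14.3% and 15.1%. Past 0.5 downward there were 10, 177 and 49 copies, or 0.677%, 12.0% and 3.32% of the family against 19.6%, 19.4% and 17.1% of all copies, and upward 19, 6 and 7, against 18.4%, 18.7% and 19.7%. With factors from the gene table, the day 0 split was 7 lower and 26 higher. The value of 1KO+1CI lay between those of 1KO and WT, with 1KO the lower, for 419 copies at day 0, 810 at day 2 and 537 at day 4, which is 28.4%, 54.8% and 36.4% against 22.3%, 18.0% and 16.0% of all copies. The 3 comparisons of a day share libraries, so they are not independent of each other.

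The 8 copies of highest mean FPKM mostly had the time course of the family. Copy 348 had 2.15 FPKM in WT at day 0, 10.8 at day 2 and 2.07 at day 4. Its values were 0.908, 5.79 and 1.47 in 1KO and 1.91, 6.30 and 1.40 in 1KO+1CI. The ratio of day 2 to day 0 in WT was 5.03 (95% counting interval 4.07 to 6.27), from 601 and 101 reads, and day 2 was the highest day in each line.

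On the log2(FPKM + 1) scale, copy 74 had the deepest deficit at day 0 in both 1KO and 1KO+1CI relative to WT, though some copies of lower level had smaller ratios. It had 3.83, 9.74 and 3.11 FPKM in WT at days 0, 2 and 4, 1.30, 4.38 and 1.12 in 1KO, and 1.66, 3.99 and 1.78 in 1KO+1CI. The ratio of 1KO to WT was 0.340 at day 0 (counting interval 0.273 to 0.422), 0.449 at day 2 (0.393 to 0.512) and 0.360 at day 4 (0.278 to 0.463). Unlike the family mean, copy 74 in 1KO+1CI stayed far below WT at day 0, at a ratio of 0.435 (0.351 to 0.536).

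Copy 1396 was nearly equal in WT and 1KO at days 0 and 2 but not at day 4, when it was far below its day 0 level. It had 3.10, 7.80 and 1.03 FPKM in WT, 3.07, 7.46 and 0.661 in 1KO and 3.75, 5.65 and 0.876 in 1KO+1CI. Its day 4 to day 0 ratio was 0.333 in WT, against 0.216 in 1KO and 0.234 in 1KO+1CI, the most negative difference in log2(FPKM + 1) of any L1Md_T copy in each line. The 1KO to WT ratio was 0.988 at day 0 (0.813 to 1.20) and 0.956 at day 2 (0.842 to 1.09), compared with 0.639 at day 4 (0.423 to 0.959).

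Copy 785, with the highest mean of 4.47 FPKM, lacked the day 2 peak of the family in the mutant lines. It had 3.25, 4.90 and 4.30 FPKM in WT, 4.86, 4.35 and 2.97 in 1KO and 5.59, 5.58 and 4.43 in 1KO+1CI. At day 0 it was higher in 1KO than in WT, at a ratio of 1.49 (counting interval 1.20 to 1.88), and day 2 to day 0 ratios were 1.51 in WT, against 0.895 in 1KO and 0.998 in 1KO+1CI. Among the 8 highest copies it alone was not highest at day 2 in every line.

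**Figure D4:**
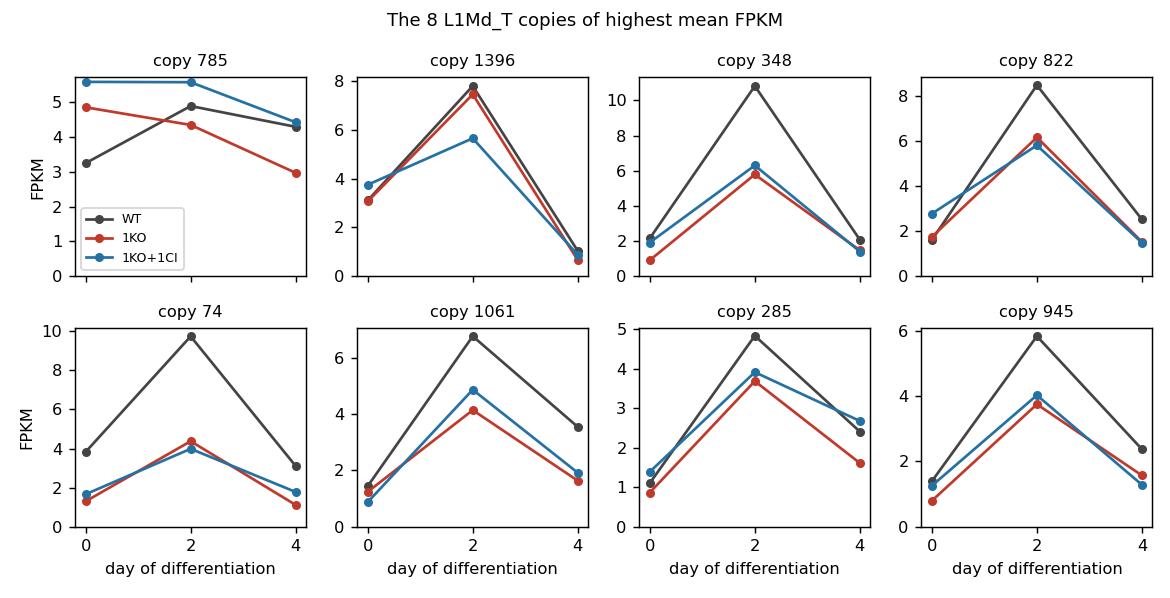
FPKM (linear axes from 0, one scale per panel) of the 8 L1Md_T copies of highest mean FPKM at days 0, 2 and 4 in WT (grey), 1KO (red) and 1KO+1CI (blue), 1 library per point. Day 2 is highest in every line for all panels except copy 785, and copy 74 shows the widest gap between WT and the other lines.

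The remaining members of the 8 had day 2 values of 8.48, 6.16 and 5.81 FPKM in WT, 1KO and 1KO+1CI for copy 822, 6.76, 4.14 and 4.86 for copy 1061, 4.83, 3.69 and 3.91 for copy 285 and 5.83, 3.75 and 4.03 for copy 945. WT was the highest line at day 2 for each of them. At day 0 the same copies lay between 0.796 and 2.77 FPKM, with no common order of the lines.

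Single copies could go against the family. Copy 418 had 0.403, 0.652 and 0.655 FPKM in WT at days 0, 2 and 4, 0.515, 1.56 and 1.24 in 1KO and 0.651, 1.60 and 1.51 in 1KO+1CI. It was higher in 1KO than in WT at day 2 by a ratio of 2.39 (counting interval 1.65 to 3.51) and in 1KO+1CI by 2.46 (1.70 to 3.60), and at day 4 the ratios were 1.89 and 2.31. It was the L1Md_T copy with the largest upward difference in log2(FPKM + 1) at day 2 in both comparisons with WT. Copy 15 stood out in the day 0 library of 1KO+1CI, with 2.09 FPKM from 163 reads against 0.848 in WT and 0.645 in 1KO. At day 2 copy 15 had 3.79 FPKM in WT, against 2.98 in 1KO and 3.21 in 1KO+1CI, the order of the family.

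Copies 555 and 909 had the deepest deficits in 1KO relative to WT at days 2 and 4 in log2(FPKM + 1). Copy 555 had 3.08 FPKM in WT at day 2, compared with 0.845 in 1KO and 2.02 in 1KO+1CI, a 1KO to WT ratio of 0.274 (0.175 to 0.417), while at day 0 it had 0.340, 0.386 and 0.640 FPKM. Copy 909 had 2.44 FPKM in WT at day 4, compared with 0.654 in 1KO and 1.59 in 1KO+1CI, a ratio of 0.268 (0.161 to 0.432), and 3.55, 2.30 and 2.81 FPKM at day 2. In both copies 1KO+1CI lay between the other lines on the day of the largest difference.

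The other extremes of each comparison, also on the log2(FPKM + 1) scale, rested on fewer reads. Copy 1230 had 0.670 FPKM in 1KO at day 0, from 16 reads, against 0.114 in WT, from 2 reads, and the counting interval of its ratio of 5.88 ran from 1.38 to 52.7. Copy 884 likewise had 16 reads in 1KO at day 4 against 2 in WT, with 0.498 and 0.067 FPKM. Between 1KO+1CI and 1KO, the extremes were copy 526 (1.71 against 0.380 FPKM) and copy 1097 (0.201 against 1.06 FPKM) at day 2, and copy 594 (1.42 against 0.472 FPKM) and copy 360 (0.252 against 1.02 FPKM) at day 4. Copy 367 was lowest relative to WT in 1KO+1CI at day 4, with 0.326 against 1.58 FPKM. From day 0 to day 4 the largest upward differences in log2(FPKM + 1) were those of copy 246 in WT (0.337 and 1.86 FPKM), copy 743 in 1KO (0.147 and 1.02 FPKM) and copy 769 in 1KO+1CI (0.304 and 1.53 FPKM). These copies were picked as extremes among 1477, so their values are a description.

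Other young LINE-1 families were compared with L1Md_T to see what was shared. L1Md_Gf, with 58 listed copies, was almost parallel. Its means were 0.377, 0.247 and 0.367 FPKM in WT, 1KO and 1KO+1CI at day 0, 1.47, 0.862 and 0.994 at day 2 and 0.499, 0.336 and 0.354 at day 4. Over the 9 libraries its log-scale profile correlated with that of L1Md_T at Pearson r = 0.996, the highest of 370 other families with at least 10 copies, followed by L1_Mm at 0.971 and MER20 at 0.959. Families share libraries and depth, and 9 points include only 3 per line.

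L1Md_A, with 997 copies, had the day 2 maximum and the deficit in 1KO but ended lower. Its means were 0.657, 0.423 and 0.732 FPKM at day 0, 1.67, 1.15 and 1.31 at day 2 and 0.505, 0.290 and 0.314 at day 4. The day 4 to day 0 ratio of L1Md_A was 0.768 in WT, against 0.687 in 1KO and 0.428 in 1KO+1CI, where L1Md_T had 1.38, 1.30 and 1.08. The older L1Md_F2 family (303 copies) had ratios of 1KO to WT of 0.922, 0.956 and 0.808, and a day 2 to day 0 ratio in WT of 1.44. Its highest value, 31.5 FPKM in WT and 38.7 in 1KO at day 0, weighed on these means. Its medians in WT and 1KO were 0.268 and 0.242 FPKM at day 0, 0.317 and 0.355 at day 2 and 0.233 and 0.232 at day 4. Of its copies, 60.1%, 48.5% and 58.7% were lower in 1KO on the 3 days. For the 2858 LINE-1 copies outside the L1Md families the 1KO to WT ratios were 1.02, 1.01 and 1.05 and the day 2 to day 0 ratio in WT was 1.21. A single copy, with 588 FPKM in WT and 914 in 1KO at day 0, weighed on these means, and without it the ratios of 1KO to WT were 0.975, 0.998 and 1.06. The median of these copies was 0.750 FPKM in WT and 0.565 in 1KO at day 0, a ratio of 0.753, and 61.0% of them were lower in 1KO, compared with 72.3% of L1Md_T copies. At days 2 and 4 the ratios of medians were 1.05 and 1.06, and 49.7% and 49.3% were lower.

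IAPEz-int, the internal part of the intracisternal A particle retrovirus and a well known target of DNA methylation, went the other way. Its 426 copies had means of 0.727, 7.14 and 2.26 FPKM in WT, 1KO and 1KO+1CI at day 0, 0.792, 4.70 and 4.62 at day 2 and 0.563, 17.1 and 23.4 at day 4. The ratio of 1KO to WT was thus 9.82, 5.94 and 30.3 for IAPEz-int on the days on which it was 0.739, 0.644 and 0.695 for L1Md_T. Of the IAPEz-int copies, 425 were above WT in 1KO on all 3 days, against 25 of the 1477 L1Md_T copies.

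**Figure D5:**
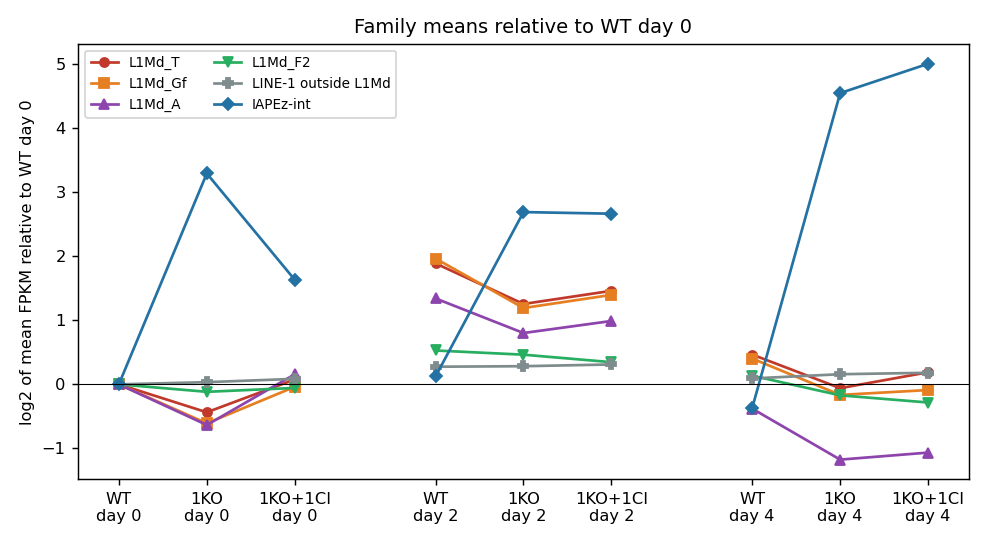
log2 of the mean FPKM of 6 groups of repeat copies relative to their own level in WT at day 0 (vertical axis) in the 9 libraries, with lines joining the libraries of a day as a guide. L1Md_T (red) and L1Md_Gf (orange) nearly coincide, L1Md_A (purple) ends lowest, and IAPEz-int (blue) is above all LINE-1 groups in 1KO and 1KO+1CI on each day.

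Among the 371 families with at least 10 listed copies, L1Md_T ranked 2 by the ratio of day 2 to day 0 in WT, behind L1Md_Gf, 2 in 1KO and 5 in 1KO+1CI, where the median family had ratios of 1.13, 1.17 and 1.09. By the ratio of WT to 1KO it ranked 34 at day 0, 5 at day 2 and 7 at day 4, against medians of 1.05, 1.03 and 0.975. These rankings were drawn up after the family's values were known.

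Genes that act on LINE-1 were given by lists, since the RNA of the elements depends on factors at the chromatin and at the transcript. Of 40 such genes in the gene table, 6 were higher in 1KO than in WT by over 0.5 in log2(FPKM + 1) at day 0 and 1 was lower, where 10.0% and 11.1% of the 15074 genes did so. At day 2 there were 4 higher and 4 lower (7.09% and 7.18% of all genes), and at day 4 1 higher and 3 lower (7.61% and 5.32%). The median difference of the list was 0.10, 0.01 and -0.06, and that of all genes -0.01, 0.00 and 0.00.

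In the DNA methylation list of 9 genes, 3 were higher and 1, Dnmt1, lower in 1KO at day 0, against 10.0% and 11.1% of all genes. Dnmt3l, the cofactor of the de novo methyltransferases, had 41.3 FPKM in WT, against 203 in 1KO and 203 in 1KO+1CI at day 0, 144, 287 and 304 at day 2 and 42.9, 41.0 and 53.7 at day 4. Dnmt3b, a de novo methyltransferase, had 73.6, 107 and 87.6 FPKM at day 0, 115, 224 and 220 at day 2 and 390, 328 and 226 at day 4. Tet2, which oxidises 5-methylcytosine, had 10.4 FPKM in WT, against 5.70 in 1KO and 4.24 in 1KO+1CI at day 2 and was under 1 FPKM in all 3 lines at day 4.

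Of 12 chromatin repressors of LINE-1, 1, 1 and 0 were higher in 1KO than in WT on the 3 days and 0 were lower, against the shares of all genes given above. In 1KO+1CI 0, 2 and 1 were higher than in WT, where 9.68%, 9.21% and 10.7% of all genes were, and 0 were lower on each day, where 12.5%, 7.91% and 8.33% of all genes were. Trim28, the KAP1 corepressor recruited by zinc finger proteins, was at 453 FPKM in WT and 679 in 1KO at day 0. Between days, 3 of the 12 were higher at day 2 than at day 0 in WT, against 11.3% of all genes, 4 in 1KO, against 9.49%, and 5 in 1KO+1CI, against 11.5%. Tasor, a subunit of the HUSH silencing complex, had 13.1, 13.4 and 16.7 FPKM in WT, 1KO and 1KO+1CI at day 0, 28.3, 24.7 and 25.6 at day 2 and 13.8, 11.9 and 12.7 at day 4. Its maximum was therefore at day 2, as for L1Md_T. Pphln1, which encodes the HUSH subunit periphilin, had 15.3, 13.2 and 14.2 FPKM at day 0, 15.8, 27.7 and 32.7 at day 2 and 50.3, 61.8 and 57.6 at day 4.

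The next list held 14 genes tied to restriction of LINE-1, and not all of them act on the level of its RNA. Of these 14, 1 was higher and 0 lower in 1KO at day 0. Over all genes the shares were 10.0% and 11.1%. At day 2 the counts were 0 and 2 (7.09% and 7.18% of all genes), and at day 4 1 and 1 (7.61% and 5.32%). Mov10, an RNA helicase that restricts LINE-1 RNA, had 68.2, 54.1 and 53.2 FPKM in WT, 1KO and 1KO+1CI at day 0, 42.6, 24.5 and 13.7 at day 2 and 7.20, 14.7 and 12.1 at day 4. In WT its level was lower on each later day, whereas L1Md_T was highest at day 2. Rnaseh2a, the catalytic subunit of RNase H2, had 68.9, 49.2 and 46.0 FPKM at day 0, 48.3, 34.2 and 34.9 at day 2 and 62.9, 39.3 and 33.1 at day 4, with WT highest each day. Of 5 promoter activators and RNA partners, L1td1, which encodes an RNA-binding protein derived from LINE-1, had the largest difference between 1KO and WT at day 0, with 189 FPKM in WT, against 275 in 1KO and 269 in 1KO+1CI, and it had 299, 307 and 297 FPKM at day 2. The part of any of these genes in the L1Md_T levels was not tested.

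Markers of other cell types also differed between the libraries. The summed FPKM of 7 feeder fibroblast markers was 117 in WT, against 284 in 1KO and 306 in 1KO+1CI at day 0, and between 17.2 and 50.4 at days 2 and 4. None of the 7 was at 0. At day 0 the 1KO and 1KO+1CI sums were close, and the WT sum was the lowest. The sum of 8 ESC markers was 1451, 1803 and 1808 FPKM at day 0, 1743, 1264 and 1070 at day 2 and 1188, 1007 and 903 at day 4, and much of it was Pou5f1. Without Pou5f1 the sum of the other 7 was 819, 995 and 1041 FPKM at day 0 and 763, 505 and 425 at day 2. At day 4 it was 180, 262 and 253. That sum was highest in WT at day 2 and lowest in WT at days 0 and 4, but members differed. Klf4 and Dppa3 were lowest in WT at day 2, where the rest of the 7 were highest in WT. Sox2 was highest in WT at day 0. At day 4 Sox2 and Zfp42 were highest in WT and the rest lowest, with Nanog at 56.8, 171 and 157 FPKM. The sum of 5 epiblast markers, Dnmt3b among them, was 122, 143 and 123 FPKM at day 0, 173, 357 and 379 at day 2 and 589, 540 and 396 at day 4. At day 2 the WT library thus had the lowest epiblast sum and the highest ESC sum of the 3 lines. The sum of 4 markers of the 2-cell-like state, in which some retroelements are active, was 6.29, 8.42 and 11.1 FPKM at day 0, 2.16, 0.629 and 1.17 at day 2 and 5.26, 8.22 and 6.18 at day 4, lowest on the day L1Md_T was highest. Sums of 4 primitive streak markers were 3.60, 4.21 and 2.79 FPKM at day 0, 4.31, 4.92 and 4.23 at day 2 and 14.5, 74.1 and 87.1 at day 4. Sums of 6 primitive endoderm markers were 5.65, 8.21 and 11.2 FPKM at day 0 and 2.74, 5.24 and 11.9 at day 2. At day 4 they were 6.60, 13.3 and 20.1. Among them, Gata4 was lower in 1KO than in WT on each day, as was Foxa2 at day 2. The part of these cell populations in the L1Md_T differences was not tested.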

How the data were processed

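RNA-seq of 9 libraries was deposited as 2 tables, for genes and for repeat copies. Per the labels and the study's methods, the authors used Trim Galore on the paired reads, then HISAT2 with the mm10 genome, SAMtools and HOMER, whose counting and scaling gave the FPKM values deposited here. For tool versions, the strand setting and the treatment of reads with several matches, a value is not given in the sources used here. Columns of other samples numbered 0.

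Values were analysed with Python 3.11.15, numpy 2.4.6, pandas 2.3.3 and scipy 1.17.1. The family level was log2 of the mean FPKM over copies plus a pseudocount of 1, or 0.1 as the alternative. A copy was counted past a threshold where log2(FPKM + 1) differed by over 0.5, and the same share was given over all 38385 copies. A copy under 0.5 on this scale in the library it is compared with cannot pass downward, so downward shares depend on level. Reads were recovered as whole multiples of the smallest common FPKM step (tolerance 0.00055 FPKM plus 0.0001 of the value), and counting intervals were exact binomial (Clopper-Pearson, 95%). With 1 library per condition, no model was fitted across copies or genes. An exact permutation test of signs over 3 pairs (libraries paired by day) was added for the family level of 1KO against WT. Step recovery was tested on simulated data. The depth of WT at day 0 was estimated from FPKM values and annotated lengths of genes with 1 annotated transcript. Depths of the other libraries followed from their relative steps. Of 15095 gene entries, 21 name no gene and were left out.

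Copies named were the 8 of highest mean FPKM and the extremes of each comparison between lines and of day 4 against day 0. Genes named were the extremes of each list, with a few others chosen after their values were seen. The copies are listed by name alone, but the family and the gene lists were chosen with earlier results of these data known.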

Additional observations from a re-analysis of the deposited data

Results flagged for a closer look

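1KO+1CI against WT had opposite signs on different days. The difference in log2(mean FPKM + 1) was 0.025 at day 0 and -0.25 at day 2, and likewise 0.025 at day 0 against -0.10 at day 4. The difference between days was not tested, since each condition has 1 library.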

How the results depend on the processing

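The alternatives kept the direction of all 15 family differences. In order of 1KO against WT, 1KO+1CI against 1KO and 1KO+1CI against WT, a pseudocount of 0.1 gave log2 differences of -0.35, 0.41 and 0.063 at day 0, -0.59, 0.19 and -0.40 at day 2 and -0.44, 0.21 and -0.24 at day 4. Day 2 against day 0 then gave 1.69, 1.45 and 1.22 and day 4 against day 0 gave 0.39, 0.30 and 0.094 in WT, 1KO and 1KO+1CI. With scaling factors from the repeats, the first 2 comparisons gave -0.081 and 0.11 at day 0, and all 3 gave -0.34, 0.10 and -0.24 at day 2 and -0.21, 0.10 and -0.11 at day 4. The day 2 differences became 0.76, 0.50 and 0.49 and those of day 4 0.22, 0.085 and 0.077. With factors from the genes, 1KO+1CI against 1KO gave 0.16 and 0.10 at days 0 and 2, 1KO+1CI against WT 0.041 and -0.27, and 1KO against WT -0.38 at day 2. Day 2 against day 0 gave 0.90 in WT and 0.59 in 1KO+1CI, and day 4 against day 0 gave 0.027 in 1KO+1CI. Over copies of at least 0.5 FPKM in 1 library, 1KO against WT gave -0.13, -0.38 and -0.20, 1KO+1CI against 1KO gave 0.16 at day 0, and 1KO+1CI against WT gave -0.27 and -0.11 at days 2 and 4. Day 2 against day 0 gave 0.94, 0.69 and 0.65, and day 4 against day 0 gave 0.17 in WT and 0.11 in 1KO. With the median over copies, 1KO+1CI against 1KO gave 0.12 and 0.070 and 1KO+1CI against WT -0.25 and -0.11 at days 2 and 4. Day 2 against day 0 gave 0.87, 0.62 and 0.60, and day 4 against day 0 gave 0.027 in 1KO+1CI. The alternatives for day 2 against day 0 were chosen after seeing the data. Leaving out the 10 highest copies kept all 15 differences within their counting intervals.

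Counts past the threshold moved more. With a pseudocount of 0.1 and a threshold of 1, 157, 224 and 188 copies were lower and 21, 5 and 7 higher in 1KO than in WT at days 0, 2 and 4. For 1KO+1CI against WT 42, 70 and 112 were lower, and 70 were higher at day 0 and 20 at day 4. For 1KO+1CI against 1KO 14 and 31 were lower and 154 and 83 higher at days 0 and 4. Factors from the repeats gave 3 copies higher in 1KO than in WT at day 0, and 124 lower and 1 higher at day 4. For 1KO+1CI against 1KO they gave 4 lower and 27 higher at day 0 and 42 higher at day 4. Factors from the genes gave 2 copies higher in 1KO than in WT at day 0. The cause of these shifts was not tested. With the libraries paired by day or by line, 3 pairs allow no exact p below 0.25. Depth limits single copies, with a median of 18 to 85 reads, and the counting intervals leave out all spread between cultures.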
